A study of Mus musculus with 2 samples.

Results

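The miR-290 to miR-295 cluster is a group of 9 mouse microRNA genes, and it was followed here through every array probe whose name is one of those genes with or without an arm suffix. The 18 probes found give both arms of mmu-miR-290a, mmu-miR-290b, mmu-miR-291a, mmu-miR-291b, mmu-miR-292a, mmu-miR-292b, mmu-miR-293, mmu-miR-294 and mmu-miR-295 (written without the prefix below), out of 1165 miRNA names on 1900 mouse miRNA probes. The arrays held total RNA of mononuclear cells isolated from the lamina propria of the colon, the connective tissue layer beneath the gut epithelium, of male Balb/c mice. One sample came from specific pathogen-free (SPF) mice, whose gut is colonised by microbes, and one from germ-free mice, whose gut is not. With 1 array for each group, none of the differences below can be set against replicates or tested. The labels give neither age nor number of animals.

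MicroRNAs are cut from hairpin transcripts, and either the 5p or the 3p arm of the hairpin can be loaded into Argonaute to repress messenger RNAs that pair with its seed. The miR-290 to miR-295 hairpins are known as the leading miRNA cluster of mouse embryonic stem cells, where their 3p arms repress inhibitors of the cell cycle such as Cdkn1a and help to keep the cells dividing. The cluster is also active in the early embryo, the trophoblast and the germ line. It is switched off as cells differentiate, and it is not known as a leukocyte cluster.

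In GENCODE M21 (GRCm38) the 9 hairpins lie at chr7:3218626-3220841, a span of 2216 bases. On the plus strand are 7 of them, and Mir290b and Mir292b lie on the minus strand, inside Mir290a and Mir292. The Mir290a and Mir290b pair lies outside other annotated genes, while the other 7 overlap annotated exons of the minus-strand gene Nlrp12. Mature sequences were taken from RefSeq (GRCm38.p6), which matched 17 of the 18 arms. The exception was miR-292a-3p.

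The 3p arms are shown first, with bases 2 to 8 (the seed) in capitals. The AAGUGCU seed of embryonic stem cells is that of miR-291a-3p, miR-294-3p and miR-295-3p, while miR-291b-3p and miR-290a-3p differ from it in the last letter. The last 2 lines give miR-302b-3p, encoded at chr3:127545275-127545297 in the other embryonic stem cell cluster, and miR-17-5p, of the widely expressed family whose seed is the same letters moved by 1 base (chr14:115043684-115043706, plus strand).
miR-291a-3p: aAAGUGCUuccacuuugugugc
miR-294-3p: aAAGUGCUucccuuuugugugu
miR-295-3p: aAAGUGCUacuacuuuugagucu
miR-291b-3p: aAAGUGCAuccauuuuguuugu
miR-290a-3p: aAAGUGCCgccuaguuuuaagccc
miR-302b-3p: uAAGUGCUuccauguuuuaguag
miR-17-5p: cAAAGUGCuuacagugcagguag

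The 5p arms of the plus-strand hairpins and the 3p arms of the minus-strand hairpins are shown because every arm above the spots without a probe is among them. Capitals mark the letters GGGGC or GGCCC on either strand (GCCCC is GGGGC read on the other strand). miR-293-5p holds neither.
miR-290a-5p: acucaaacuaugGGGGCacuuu
miR-292a-5p: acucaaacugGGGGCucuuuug
miR-295-5p: acucaaauguGGGGCacacuuc
miR-291a-5p: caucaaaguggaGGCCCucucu
miR-291b-5p: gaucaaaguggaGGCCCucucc
miR-294-5p: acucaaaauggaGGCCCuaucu
miR-293-5p: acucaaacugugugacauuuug
miR-290b-3p: aaguGCCCCcauaguuugagua
miR-292b-3p: aagaGCCCCcaguuugaguau

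Every value is a median spot intensity at 635 nm in arbitrary units, and each probe has 1 spot. The 174 spots without a probe averaged 176.2 on the SPF array (SD 13.0) and 143.5 on the germ-free array (SD 11.1). The limit of mean + 2 SD over these spots, 202.2 on the SPF array and 165.8 on the germ-free array, is called the level without a probe below. Blank spots were lower, with a mean of 158.3 and an SD of 5.33 on the SPF array, and a mean of 128.5 and an SD of 4.53 on the germ-free array. The spots named Negative Control 1 reached 224.8 on the SPF array and 203.5 on the germ-free array, above the level without a probe on both. Beside the labelled cell type, 6 leukocyte miRNAs were read (miR-150-5p, both arms of miR-142a, miR-223-3p, miR-155-5p and miR-342-3p). All 6 exceeded that level on both arrays, as did 54.8% of all mouse miRNA probes. The leukocyte medians were 1674 on the SPF array and 2181 on the germ-free array. The 8 intestinal epithelial miRNAs named below exceeded the level too, with medians of 2093 on the SPF array and 845 on the germ-free array. Passing the level thus does not tell leukocyte from epithelial RNA.

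The arms that carry the embryonic stem cell seed did not exceed the level without a probe on either array. The 5p arms of the same hairpins, miR-291a-5p, miR-294-5p and miR-295-5p, exceeded it on both. Of these, miR-294-5p and miR-295-5p were under the brightest spot without a probe on both arrays. Of the 18 arms, 8 exceeded the level without a probe on the SPF array, where 56.9% of all mouse miRNA probes did. On the germ-free array the same 8 arms exceeded it, against 58.1% of all probes, and 54.8% of all probes exceeded it on both. They were miR-290a-5p, miR-291a-5p, miR-291b-5p, miR-292a-5p, miR-294-5p, miR-295-5p, miR-290b-3p and miR-292b-3p. The 18 arms together held 0.114% of the net signal of all miRNA probes on the SPF array and 0.117% on the germ-free array. The count depends on the limit. With the brightest spot without a probe as the limit it was 5 on the SPF array and 6 on the germ-free array. With the brightest Negative Control 1 spot as the limit it was 7 on the SPF array and 6 on the germ-free array. miR-295-5p was under that spot on both arrays and miR-294-5p on the germ-free array. With the mean + 2 SD of the blank spots it was 15 on the SPF array, where 79.5% of all probes passed, and 13 on the germ-free array, where 81.0% passed.

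**Figure D1:**
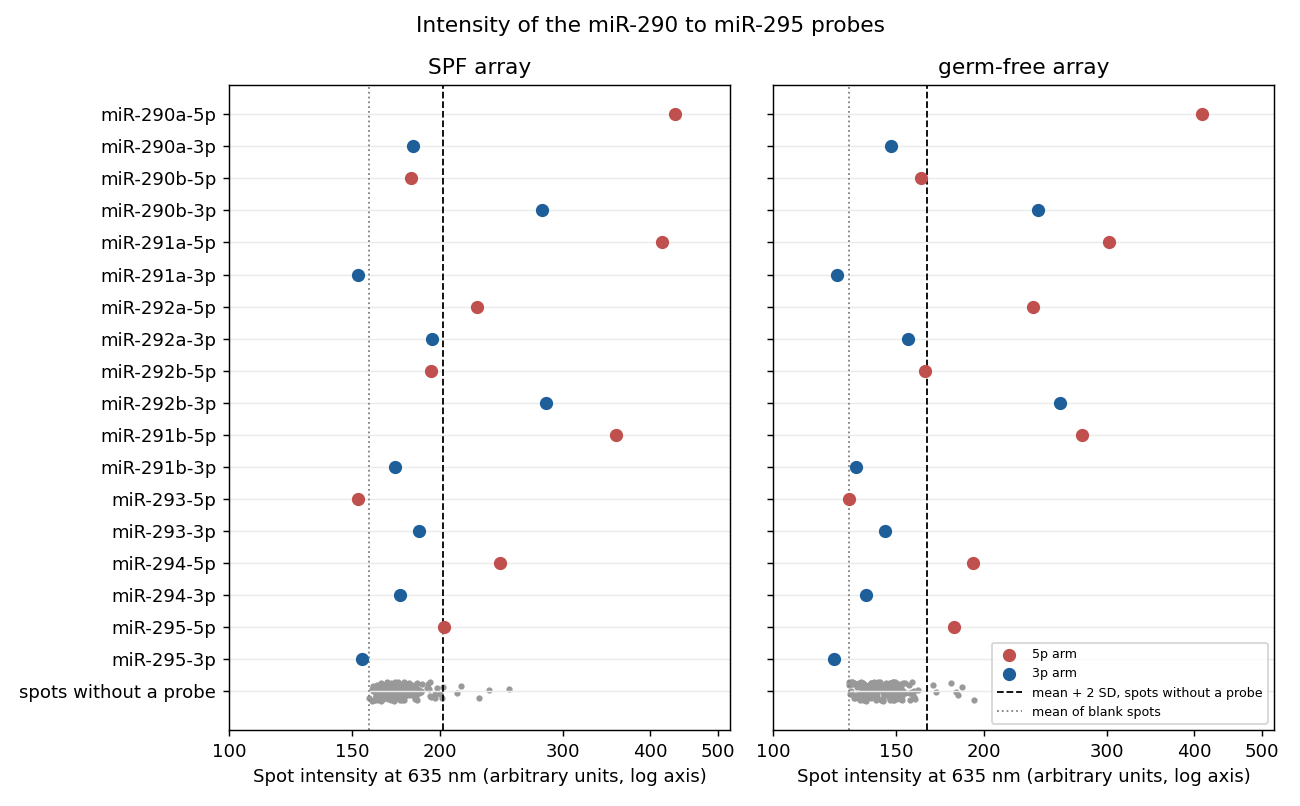
Spot intensity at 635 nm (log axis) of each of the 18 cluster probes, in genome order of the hairpins, on the SPF array (left) and the germ-free array (right), 1 point per probe, with the spots without a probe in grey at the bottom. The dashed line is the level without a probe and the dotted line the blank mean. The same 8 arms lie to the right of the dashed line on both arrays.

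The level without a probe was exceeded by 56.9% of all mouse miRNA probes on the SPF array and 58.1% on the germ-free array. Among the 3p arms of the plus-strand hairpins, none of 7 exceeded it on either array. Their intensities ran from 152.7 to 195.2 on the SPF array and from 122.2 to 155.8 on the germ-free array. miR-291a-3p, one of the members with the AAGUGCU seed, had an intensity of 152.7 on the SPF array and 123.5 on the germ-free array. That of miR-295-3p, of the same seed, was 154.8 on the SPF array and 122.2 on the germ-free array. Both arms lay under every spot without a probe and under the mean of the blank spots on both arrays. The third arm with this seed, miR-294-3p, which with its seed relatives is known to help the reprogramming of mouse fibroblasts, gave 175.3 on the SPF array and 135.7 on the germ-free array. It lay above 57.5% of the spots without a probe on the SPF array and above 25.3% on the germ-free array.

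The remaining 3p arms of the plus strand have neighbouring seeds. miR-291b-3p, with seed AAGUGCA, had an intensity of 172.7 on the SPF array and 131.2 on the germ-free array. miR-290a-3p, with seed AAGUGCC, was at 183.3 on the SPF array and 147.6 on the germ-free array. Both lay within the range of the spots without a probe. miR-293-3p, in which the same letters start nearer to the 5′ end so that its seed is GUGCCGC, gave 186.9 on the SPF array and 144.7 on the germ-free array. The brightest of these arms was miR-292a-3p, at 195.2 on the SPF array and 155.8 on the germ-free array. It exceeded 93.7% and 90.2% of the spots without a probe on the SPF and the germ-free array and stayed under the level on both.

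The 5p arms of the plus-strand hairpins are less studied than the 3p arms. They exceeded the level in 6 of 7 cases on both arrays, beside 54.8% of all mouse miRNA probes. miR-290a-5p was the brightest arm of the cluster, with an intensity of 434 on the SPF array and 411 on the germ-free array. It ranked 399 of 1900 probes on the SPF array and 366 on the germ-free array. The nearly identical miR-291a-5p and miR-291b-5p, alike in 20 of 22 bases and with the shared seed AUCAAAG, followed. miR-291a-5p had 416 on the SPF array and 302.2 on the germ-free array, and miR-291b-5p had 357 on the SPF array and 277 on the germ-free array. These 3 arms lay above every spot without a probe, and their intensities came in the same order on both arrays. That order rests on the background. On the SPF array the local background was 280.8 at miR-290a-5p and 297.8 at miR-291a-5p, and it was lower at miR-291b-5p. With each spot's own local background subtracted, miR-291b-5p was the brightest arm on the SPF array. On the germ-free array it was still miR-290a-5p. Probes for arms as similar as miR-291a-5p and miR-291b-5p may share target molecules, which was not tested.

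The other 5p arms were weaker. miR-294-5p, which matches miR-291a-5p at 18 of 22 bases, had an intensity of 244 on the SPF array and 193.1 on the germ-free array. miR-292a-5p gave 227 on the SPF array and 235 on the germ-free array. miR-295-5p lay just over the level, at 202.9 on the SPF array and 181.2 on the germ-free array, and it was under the brightest spots without a probe on both. The brightest such spot was at 251.3 on the SPF array and 193.96 on the germ-free array. miR-294-5p was thus also under it on both arrays, and miR-292a-5p was under it on the SPF array. miR-293-5p stood apart at the level of blank spots, with 153.1 on the SPF array and 128.2 on the germ-free array, although it shares the seed CUCAAAC with miR-290a-5p and miR-292a-5p and matches miR-292a-5p at 17 of 22 bases.

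The minus-strand hairpins had the opposite order of arms. miR-290b-3p, whose sequence overlaps miR-290a-5p by 21 bases on the other strand, gave 280.0 on the SPF array and 239 on the germ-free array. miR-292b-3p, which overlaps miR-292a-5p by 19 bases, gave 284 on the SPF array and 257 on the germ-free array. Both lay above every spot without a probe on both arrays, but with local background subtracted miR-290b-3p was under the level on the germ-free array. Their partner arms stayed under the level, miR-290b-5p at 181.9 on the SPF array and 162.8 on the germ-free array, and miR-292b-5p at 194.7 on the SPF array and 164.6 on the germ-free array. On either strand, the brighter arm of miR-290 and of miR-292 was thus the one read from the same side of the locus, the side of miR-290a-5p and miR-292a-5p.

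Within hairpins, the 5p arm was brighter than the 3p arm in 6 of the 7 plus-strand hairpins on both arrays, and the 3p arm was brighter in both minus-strand hairpins. Net intensities (spot intensity minus the mean of the blank spots) were compared, with a value under 2 SD of the blank spots set to that floor, so the ratios of 5 hairpins are bounds on at least 1 array. In no hairpin did both arms exceed the level without a probe on either array, so the size of no ratio was measured firmly. The median log2 ratio of 5p over 3p over the 9 hairpins was at least 2.06 on the SPF array and at least 2.54 on the germ-free array, in both cases the bound of miR-295. miR-293, the 1 plus-strand hairpin with a brighter 3p arm, had both arms under the level without a probe. The ratios are of spots with different probe sequences and not of molecules. Their size rests on the background, with medians of 0.39 on the SPF array and 0.57 on the germ-free array when no background was subtracted.

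**Figure D2:**
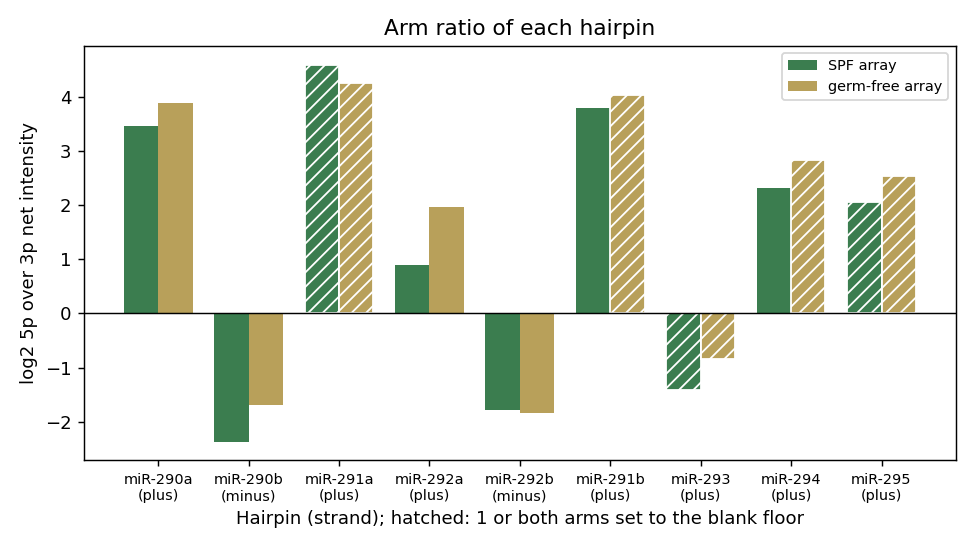
Log2 ratio of 5p over 3p net intensity for each of the 9 hairpins, with the SPF array left of the germ-free array in each pair of bars. Hatched bars have an arm set to the blank floor and are bounds. Bars point up for 6 plus-strand hairpins and down for miR-293 and the minus-strand hairpins miR-290b and miR-292b, on both arrays.

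Between SPF and germ-free mice none of the 13 arms that could be compared differed 2-fold in either direction. Of the 18 arms, 13 were above the blank floor on both arrays and had a log2 ratio of SPF over germ-free, with SPF values scaled by 0.849 to the median of 1471 shared miRNA probes. No arm was at least 2-fold higher, where 1.56% of the shared probes were, and no arm was at least 2-fold lower, where 1.43% were. The ratios ran from -0.88 to 0.58, 6 above 0 and 7 below, with a median of -0.10 against -0.06 for all shared probes. The 5 arms without a ratio were miR-291a-3p, miR-294-3p, miR-295-3p, miR-291b-3p and miR-293-5p, so the AAGUGCU arms cannot be compared between the groups at this signal. With the mean of the spots without a probe subtracted in place of the blank mean, 3 arms passed 2-fold, miR-292a-5p at -1.06, miR-290b-5p (lower in SPF mice) and miR-293-3p (higher in SPF mice). The last pair were under the level without a probe on both arrays. miR-290b-5p on the SPF array (181.9) and miR-293-3p on the germ-free array (144.7) lay within 1 SD of the mean subtracted, 176.2 on the SPF array and 143.5 on the germ-free array, so the size of their ratios cannot be read.

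miR-292a-5p had the largest of these ratios in size, at -0.88, which is 1.85-fold lower in SPF mice. Its technical SD, computed from the spread of spots without a probe and of repeated control spots, was 0.34, so the ratio was -2.62 when divided by its technical SD. It was the 1 arm of 13 past 2 technical SDs, against 13.5% of all shared probes. With each spot's own local background subtracted its ratio was -0.15, and without background subtraction -0.33. miR-292b-3p, on the opposite strand at the same place, was at -0.27 with a technical SD of 0.23.

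The brighter arms differed less. miR-290a-5p was at -0.27 (technical SD 0.15) and miR-291a-5p at 0.34 (0.17). With local background subtracted they were at -0.74 and -0.17, so the direction of miR-291a-5p turned. miR-291b-5p was at 0.19 (0.19), miR-294-5p at 0.17 (0.36) and miR-290b-3p at -0.10 (0.25). For these 5 arms the difference was within 2 technical SDs. miR-295-5p at -0.48 (0.53), miR-290b-5p at -0.77 (0.93), miR-293-3p at 0.58 (1.20), miR-292b-5p at -0.23 (0.69), miR-292a-3p at 0.20 (0.79) and miR-290a-3p at 0.16 (1.13) were within 1 technical SD of 0. The technical SD holds spread within an array and no spread between RNA samples or hybridisations.

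**Figure D3:**
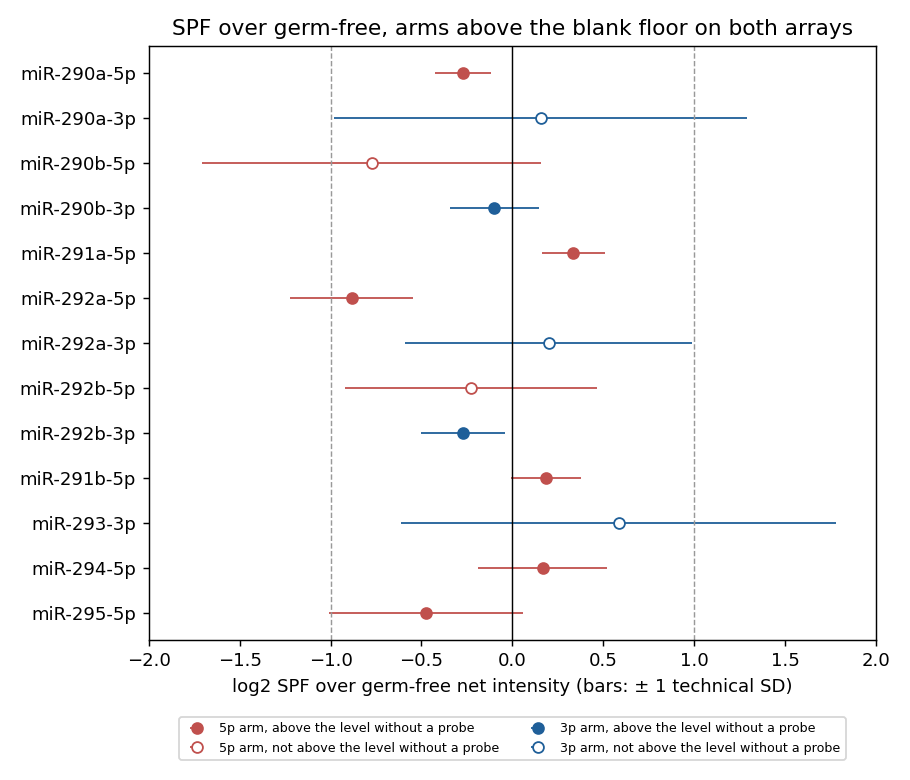
Log2 SPF over germ-free net intensity of the 13 arms above the blank floor on both arrays, with bars of ± 1 technical SD and dashed lines at 2-fold in each direction. Filled points are arms above the level without a probe on both arrays. No point lies past a dashed line, and miR-292a-5p at -0.88 lies farthest from 0.

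The cell isolates differed in other ways. All 8 intestinal epithelial miRNAs (miR-200a-3p, miR-200b-3p, miR-200c-3p, miR-141-3p, miR-429-3p, miR-192-5p, miR-194-5p and miR-215-5p) were at least 2-fold higher in SPF mice, with a summed net intensity of 17109 on the SPF array and 5458 on the germ-free array. Of the 6 leukocyte miRNAs, 5 were lower in SPF mice and miR-223-3p was higher, at 0.74 on the log2 scale. Their sum was 17438 on the SPF array and 29637 on the germ-free array, of which miR-150-5p alone held 8894 on the SPF array and 18700 on the germ-free array. These sums, and those of the epithelial miRNAs, are not scaled between arrays. Their part in the ratios of the cluster was not tested. In bulk RNA, fewer cells of a type and less RNA per cell cannot be told apart.

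The other miRNAs with the embryonic seed also stayed under the level without a probe. The cluster of miR-302 and miR-367, which shares the AAGUGCU seed through miR-302b-3p and miR-302d-3p, has 10 probes, and none exceeded the level without a probe. Their intensities ran from 154.8 to 171.9 on the SPF array and from 121.4 to 146.3 on the germ-free array. Of all mouse miRNA probes, 56.9% exceeded the level on the SPF array and 58.1% on the germ-free array. The embryonic stem cell markers miR-302a-3p, miR-302b-3p, miR-302c-3p, miR-302d-3p and miR-367-3p were all under the blank floor on both arrays. miR-302a-3p had no matched RefSeq sequence, so its seed was not looked up. Outside both clusters, among the array miRNAs with a RefSeq sequence, miR-350-5p was the 1 further miRNA with the seed of 1 of the 17 matched arms (AAGUGCA, as in miR-291b-3p), at 166.0 on the SPF array and 138.3 on the germ-free array.

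By contrast, all 6 members of the miR-17 family with the seed AAAGUGC exceeded the level on both arrays. These miRNAs are known for driving the proliferation of lymphocytes and many other cells. Their intensities ran from 984 for miR-106b-5p to 2259 for miR-17-5p on the SPF array, and from 959 to 2167 for the same miRNAs on the germ-free array. The lowest of them was thus above the brightest arm of the miR-290 to miR-295 cluster. The log2 ratios of SPF over germ-free of the 6 lay between -0.49 and -0.19, beside a median of -0.06 for all shared probes. Of the 6, 3 were past 2 technical SDs, against 13.5% of all shared probes.

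A second tissue-restricted group, 16 X-linked miRNAs known from mouse testis, was set beside the cluster. Of its 30 probes, 2 exceeded the level without a probe on the SPF array and 3 on the germ-free array, led by miR-878-3p at 297 on the SPF array and 213 on the germ-free array. Medians were 158.6 on the SPF array and 133.3 on the germ-free array. The 9 cluster 5p arms had medians of 227 on the SPF array and 193.1 on the germ-free array, and the 9 cluster 3p arms 183.3 on the SPF array and 144.7 on the germ-free array. Among all mouse miRNA probes, 56.9% exceeded the level on the SPF array and 58.1% on the germ-free array. The median G + C content was 39.1% in the testis group and 40.9% in the miR-302 and miR-367 cluster. It was 47.8% for the cluster 5p arms and 45.5% for the cluster 3p arms. The part of base composition in these group values was not tested. The values describe groups of probes that share sequences, without a test.

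**Figure D4:**
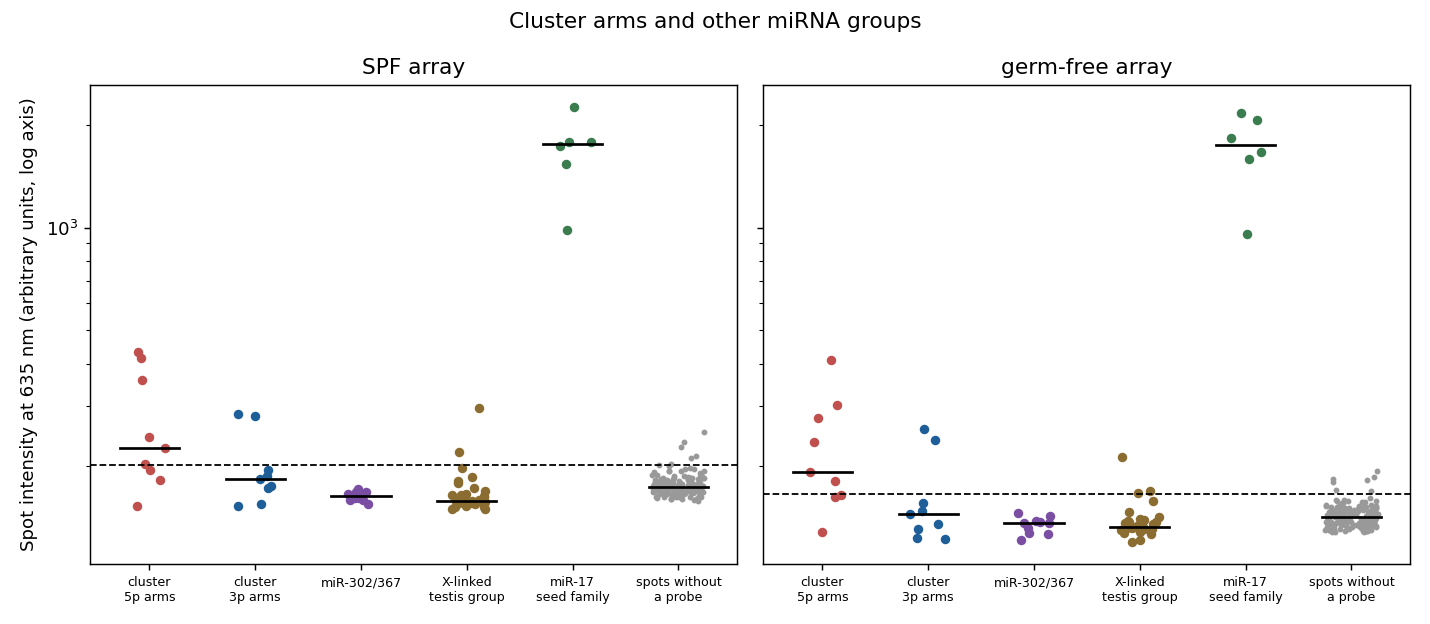
Spot intensity at 635 nm (log axis) of the cluster's 5p and 3p arms, the miR-302 and miR-367 probes, the X-linked testis group, the miR-17 seed family and the spots without a probe, on the SPF array (left) and the germ-free array (right). Points are probes or spots, black lines medians, and the dashed line the level without a probe. The miR-302 and miR-367 probes all lie under the dashed line and the miR-17 seed family at 959 or above.

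Each of the 8 brighter arms held GGGGC or GGCCC on either strand, but they did not all hold the same letters. miR-290a-5p, miR-292a-5p and miR-295-5p held GGGGC, and miR-291a-5p, miR-291b-5p and miR-294-5p held GGCCC. miR-290b-3p and miR-292b-3p held GCCCC, and they overlap miR-290a-5p and miR-292a-5p on the other strand. miR-291a-5p and miR-291b-5p match at 20 of 22 bases, so the 8 arms are not independent. None of the 9 darker arms with a RefSeq sequence held GGGGC or GGCCC on either strand. The letters were chosen after the values were seen, so this split of the arms cannot test them. The counts over the whole array that follow include the 8 arms. Over the whole array, 139 of 1614 miRNAs with a sequence (8.61%) held one of them, and of these 92.8% exceeded the level without a probe on the SPF array and 95.7% on the germ-free array. Of the 1475 without them, 53.5% exceeded it on the SPF array and 54.3% on the germ-free array. The median intensity with the letters was 376 on the SPF array and 341 on the germ-free array, and without them 209 on the SPF array and 171.7 on the germ-free array. miRNAs with the letters were also richer in G + C, with a median of 63.6% against 50% for those without. Of all 420 probes at 60% G + C or more, 86.4% exceeded the level on the SPF array and 87.1% on the germ-free array, and the part of base composition in the share with the letters was not tested.

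Base composition moved with intensity as well. The G + C content of the 8 brighter arms ran from 45.5% to 59.1% and that of the 9 darker arms from 31.8% to 50%, so the ranges overlap. Across the 17 arms the Spearman correlation of G + C content with intensity was 0.59 on both arrays, and across all 1614 miRNAs with a sequence it was 0.53 on both. The points share an array and often sequence, and the correlation is given as a description. Of 8 arms with a G + C content from 40% to under 50%, 4 exceeded the level on both arrays, beside 38.4% of all such probes on the SPF array and 38.6% on the germ-free array. Of 6 arms from 50% to under 60%, 4 exceeded it, beside 63.4% and 64.3% of such probes on the SPF and the germ-free array. Of 3 arms under 40%, none did, beside 17.4% of such probes on the SPF array and 20.5% on the germ-free array. The part of base composition in the arm difference was not tested.

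**Figure D5:**
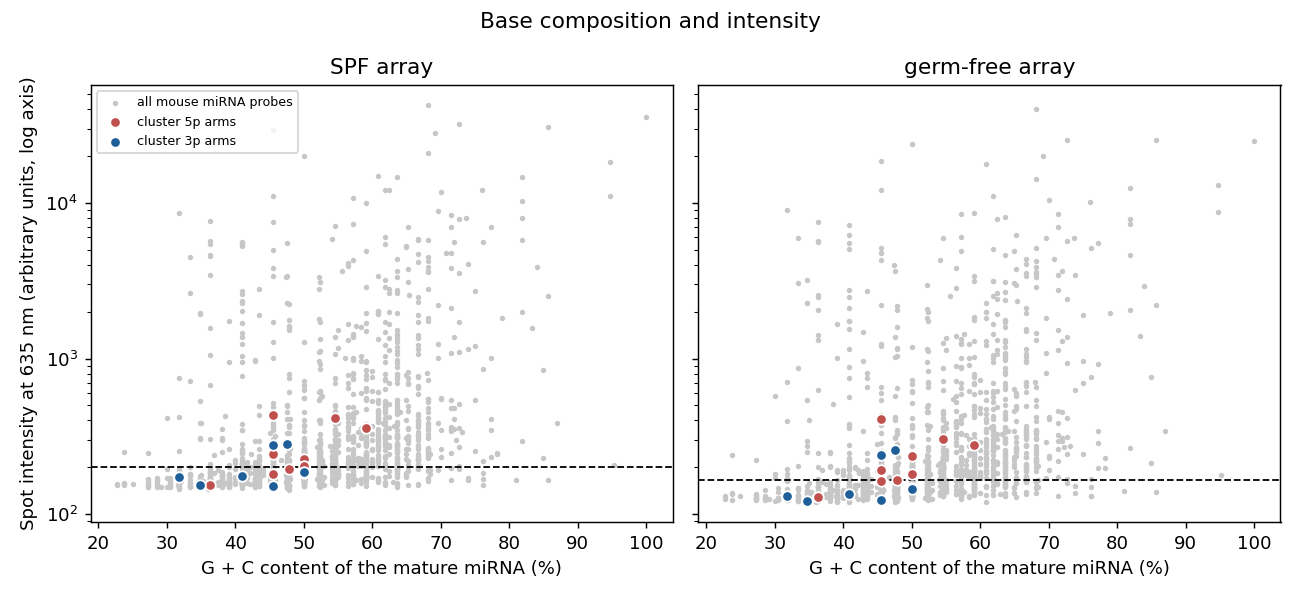
G + C content of the mature miRNA (percent) against spot intensity at 635 nm (log axis) on the SPF array (left) and the germ-free array (right), for all mouse miRNA probes with a RefSeq sequence in grey and the cluster's arms in colour. The dashed line is the level without a probe. Intensity is higher at higher G + C content over all probes (Spearman 0.53 on both arrays), and the cluster's arms lie within that cloud.

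The probes most like miR-290a-5p over both arrays, by the summed absolute difference of log2 net intensity, were miR-8093 at 0.07, miR-3103-5p at 0.10 and miR-6959-5p at 0.11. With 2 arrays this likeness is one of level only. miR-8093 had an intensity of 447 on the SPF array and 409.65 on the germ-free array.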

How the data were processed

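Total RNA was extracted with a Qiagen kit and labelled with Hy5 by an Exiqon kit, per the labels. The deposited intensity files give 1 median spot intensity and 1 local background per spot at 635 nm for 3200 spots, from scans at 3 gains per the file headers, with no scaling or subtraction that the columns show. No source used here names the array platform, scanner or software.

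From these, the mean of blank spots was subtracted (1 blank spot marked NG on the SPF array was left out). The floor was 2 SD of the blank spots, and SPF values were multiplied by 0.849 to equalise the median of 1471 probes above the floor on both arrays. The technical SD of a log2 ratio combines the SD of the spots without a probe with the pooled log2 SD (0.089) of 4 control probes of 8 spots each. The number of arrays limits the precision. Groups came from the sample titles, and with 1 array per group no test was run.

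Members, lists and alternatives were chosen with earlier results of these data known. All 18 member arms are named, with the miRNAs sharing a member's seed, the miR-302 and miR-367, miR-17 seed and X-linked testis groups, and the 3 probes nearest to the brightest arm. Choices made with the values in view were the technical SD, the sequence letters and the G + C groups. The procedure was run on simulated arrays with noise set from the blank spots and the repeated control spots. Only median log2 ratios over sets of shared probes were checked, so single arms near the floor were not. Python 3.11.15, pandas 2.3.3 and matplotlib 3.10.9 were used.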

Additional observations from a re-analysis of the deposited data

How the results depend on the processing

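No paired analysis was possible because each group has 1 array, and no replicate could be left out. The number of arms above the spots without a probe was 8 on both arrays. With the floor of the blank spots it was 15 on the SPF array and 13 on the germ-free array, where 79.5% and 81.0% of all miRNA probes on the SPF and the germ-free array passed. With the median of the spots without a probe it was 14 on the SPF array and 13 on the germ-free array, and with their maximum 5 and 6. With local background subtracted it was 8 on the SPF array (7 of them among the main 8, with miR-290a-3p in place of miR-295-5p) and 6 on the germ-free array, where miR-290b-3p and miR-294-5p were lost. The median log2 SPF over germ-free of the cluster was 0.14 without scaling, which put the median of all shared probes at 0.18, and lay between -0.18 and -0.00068 under the other alternatives. Over these alternatives 6 of the 13 arms changed sign (miR-290a-3p, miR-290b-3p, miR-291a-5p, miR-292a-3p, miR-292b-5p and miR-293-3p) and 7 did not, among them miR-292a-5p, from -1.06 to -0.15. The median log2 5p over 3p (reported as at least 2.06 on the SPF array and at least 2.54 on the germ-free array) was 0.39 on the SPF array and 0.57 on the germ-free array without background subtraction, 0.74 and 0.56 with local background, and 0.96 and 1.15 with the mean of the spots without a probe subtracted. Over hairpins with both arms above the blank floor it was 1.61 on the SPF array (6 hairpins) and 0.14 on the germ-free array (4 hairpins, of which 2 lie on the minus strand). Over the plus-strand hairpins alone, an alternative chosen after seeing the data, it was 2.33 and 2.83. The causes were not tested. Signal over background limits every arm under an intensity of about 202.2 on the SPF array and 165.8 on the germ-free array.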
